A study of Mus musculus with 12 samples.

Results

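The genes described here are 58 regulators of histone and DNA methylation or acetylation, out of 18400 genes tested. They were chosen by symbol, as the Hdac, Sirt, Kat, Kmt, Kdm, Dnmt and Tet families with Ezh1, Ezh2, Eed, Suz12, Ep300 and Crebbp. They also had to lie on an autosome and to average 10 or more normalized counts across the 11 libraries. Of the 64 genes with a matching symbol, Hdac6, Hdac8, Kdm5c and Kdm6a lie on chromosome X and Kdm5d on chromosome Y, and Dnmt3l, with a mean of 1.909, was under the minimum. The least abundant gene kept was Kdm4d, with a mean of 53.1. The other 57 regulators had means of 225.6 to 9357.

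The libraries were made from cochleae of newborn mice on a mixed C57BL/6 and CD1 background. In treated pups, Sox2-CreER removed exon 3 from 1 of the alleles of Ctnnb1 (β-catenin-flox(Exon3)/+), which leaves a β-catenin that is not marked for degradation and so turns on canonical Wnt signalling. Untreated pups were littermates that carried the same floxed allele but no Cre, and all pups, untreated ones included, received tamoxifen through the milk of an injected mother. P1 and P4 name the day of tamoxifen. The cochleae were taken 72 h later, at day 4 and day 7 after birth. Each library holds RNA from both ears of 1 pup, with 3 libraries in each group apart from P4 treated, which has 2. Sox2-CreER acts in SOX2-positive cells, whereas the sequenced tissue held hair cells, supporting cells and what remained of other cells after the epithelium was freed from mesenchyme and neurons. Every one of the 16 hair cell markers and 18 supporting cell markers was above 0 in every library. Gene-level counts do not show the loss of exon 3 of Ctnnb1. Lgr5, a target of Wnt signalling among the supporting cell markers, was higher in P1 treated than in P1 untreated libraries by 1.87 ± 0.14 on the log2 scale (± standard error; adjusted p = 0.00087). At P4 the difference was 1.08 ± 0.16 and missed the threshold (adjusted p = 0.0697). Treated pups also differ from untreated ones by Sox2-CreER itself, a knock-in at Sox2. Sox2 fell by 0.67 on the log2 scale in P1 treated libraries (adjusted p = 0.03) and stood at -0.41 ± 0.11 at P4 (adjusted p = 0.272).

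Histone acetyltransferases add acetyl groups to histone tails, which loosens chromatin, and histone deacetylases and sirtuins take them off. Methylation of histone H3 has several meanings, as the Kmt2 enzymes mark active promoters and enhancers, whereas Polycomb repressive complex 2 (PRC2) methylates lysine 27 of H3 at silenced genes, and the Kdm enzymes remove such marks. Dnmt enzymes methylate cytosine in DNA, and Tet enzymes oxidise the methyl group on the way to its removal. In the inner ear these enzymes are of interest because supporting cells of the neonatal cochlea lose the ability to divide and to form hair cells within days of birth.

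Of the regulators, 10 differed between P4 and P1 untreated libraries and 5 between P4 and P1 treated libraries, and none was called between treated and untreated libraries at either age. These are 17.2% and 8.62% of the regulators, whereas 19.9% and 11.1% of all genes tested were called with age, and 0.353% and 0.0543% with treatment at P1 and at P4. With the replicate number as a block, 8 of the 10 were called. The block was fitted over all libraries, so it pairs the untreated libraries of both ages but also ties treated libraries by number. The 5 were Kmt5c, Hdac5, Kdm7a, Dnmt3a and Hdac11, and each was among the 10 as well, in the same direction. Hdac5, Kdm7a and Kmt5c are shown here by the 250 bases before their RefSeq start (GRCm38.p6). Each was called in both comparisons of age and has 1 start in the RefSeq table. Hdac11 has 1 start as well, but 150 bases of its window lie inside its annotated gene, so its window is not shown. The windows are chr11:102230173-102230422 on the minus strand for Hdac5, chr6:39206774-39207023 on the minus strand for Kdm7a and chr7:4739877-4740126 on the plus strand for Kmt5c. Capitals mark the GC box, GGGCGG or its reverse complement CCGCCC, which is the letter pattern bound by SP1.

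Hdac5: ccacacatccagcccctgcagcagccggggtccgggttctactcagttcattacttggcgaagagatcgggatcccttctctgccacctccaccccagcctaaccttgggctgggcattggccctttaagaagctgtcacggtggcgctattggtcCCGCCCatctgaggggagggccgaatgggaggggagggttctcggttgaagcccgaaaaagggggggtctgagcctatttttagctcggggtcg
Kdm7a: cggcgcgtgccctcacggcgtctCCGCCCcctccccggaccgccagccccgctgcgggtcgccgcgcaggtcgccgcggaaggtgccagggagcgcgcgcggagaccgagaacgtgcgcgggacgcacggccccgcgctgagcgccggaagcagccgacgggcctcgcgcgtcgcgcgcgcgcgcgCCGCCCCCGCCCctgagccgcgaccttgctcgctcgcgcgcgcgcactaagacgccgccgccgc
Kmt5c: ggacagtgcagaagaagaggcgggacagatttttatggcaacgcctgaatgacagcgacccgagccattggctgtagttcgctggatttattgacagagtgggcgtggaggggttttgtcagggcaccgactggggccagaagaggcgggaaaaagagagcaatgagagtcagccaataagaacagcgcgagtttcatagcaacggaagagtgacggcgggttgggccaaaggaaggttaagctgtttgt

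The Kdm7a window held 3 GC boxes and 56 CG dinucleotides, a number that none of the 32851 windows in the table exceeded. The Hdac5 window held 1 GC box and 12 CG dinucleotides. The Kmt5c window held none of these letters and 13 CG dinucleotides. Across the 47 regulators in the table, with 70 windows, 44 windows (62.9%) held a GC box, against 32.7% of all windows. The median number of CG dinucleotides was 17.0 in windows of the regulators and 6.0 in all windows. The letters CTTTGAT or ATCAAAG, the core pattern of TCF and LEF factors that act downstream of β-catenin, stood in 1 of the 70 windows (1.43%) and in 3.21% of all windows. These are matches of letters in 1 window per start, searched on both strands, and say nothing of binding. All windows come from 27025 genes, more than the 18400 tested here, whereas the regulators had to reach a minimum level. The regulators were not compared with windows of the tested genes alone.

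Levels between genes were compared as the mean normalized count per kb of exon. The autosomal class I deacetylases were the most abundant regulators, Hdac3 at 2166, Hdac1 at 2117 and Hdac2 at 1702 per kb. They were followed by Kdm4b at 1252, Kdm1a, which removes methyl groups from lysine 4 of H3, at 1174, and Sirt2, a largely cytoplasmic deacetylase, at 1131 per kb. By contrast, autosomal class II and IV deacetylases ranged from 37.3 per kb for Hdac4 to 506.2 for Hdac5. Hdac8 of class I and Hdac6 of class II, both on chromosome X, are not part of this comparison. Among the DNA methyltransferases, Dnmt3a, which sets new methylation, stood at 561.7 per kb and the maintenance enzyme Dnmt1 at 308.5, whereas Dnmt3b, the other enzyme of new methylation, stood at 44.2. Of the Tet enzymes, Tet3 stood at 177.6, Tet1 at 88.8 and Tet2 at 58.4 per kb. In the PRC2 core, Suz12 stood at 477.5 per kb, and the catalytic subunits Ezh2 and Ezh1 at 171.8 and 177.8.

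**Figure D1:**
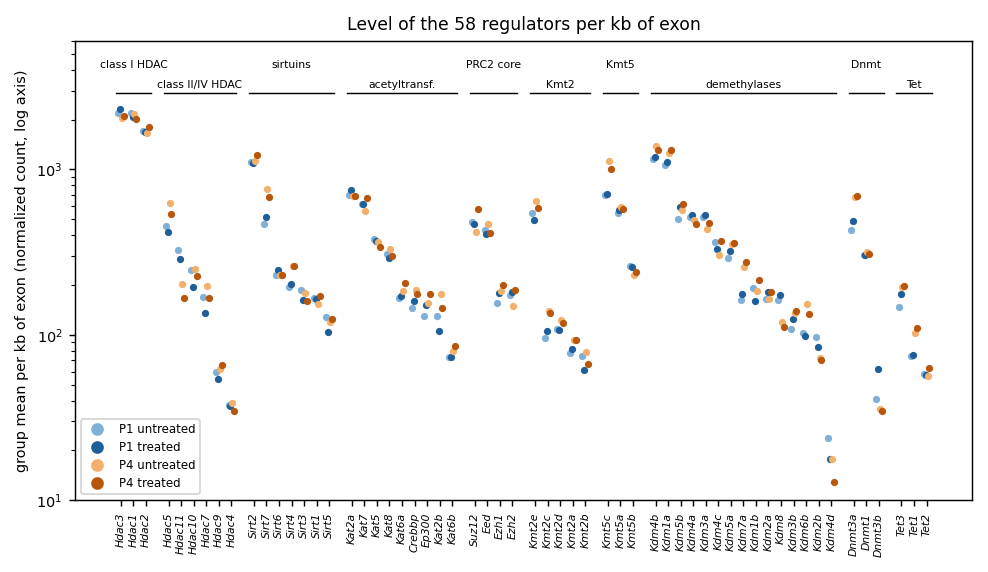
Mean level of each of the 58 regulators in each of the 4 groups, as normalized count per kb of exon on a log axis, ordered within each class. The autosomal class I deacetylases Hdac1, Hdac2 and Hdac3 lie highest in every group. The 4 group means of most genes lie close together compared with the distance between genes.

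The regulators varied less between libraries of a group than genes at large, and were also more abundant. Their median standard deviation within groups was 0.154 on the log2 scale, against 0.227 for all genes tested, and the median of their mean levels was 1872 against 727.2 normalized counts. Summed over the 58 genes, the normalized counts at P1 were 142567 to 155139 in treated and 138453 to 148334 in untreated libraries, and at P4 161067 to 162925 and 153540 to 165537. Hdac1 is an example of a gene that kept its level, with 7688, 7538 and 7324 normalized counts in P1 untreated and 7594, 7655 and 7207 in P4 untreated libraries. Its P1 treated libraries had 8198, 5887 and 7219 and its P4 treated libraries 7208 and 6724.

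The comparison of P4 with P1 asks how the regulators differ between cochleae taken at day 7 and at day 4 after birth. A called gene is one that changed by more than 1.25-fold in either direction with an adjusted p below 0.05. In untreated libraries, 10 of 58 regulators (17.2%) were called, near the 19.9% of all genes tested. They comprised 9 that were higher and 1 that was lower at P4, whereas 9.38% of all genes were called higher and 10.5% lower. The median log2 fold change was 0.07 for the regulators and -0.02 for all genes, and the median size of the change, regardless of direction, was 0.20 against 0.31. In these bulk samples, fewer cells of a type and less RNA per cell cannot be told apart.

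Other cell features moved with age in the same libraries. Of 25 genes of G2 and M phase, 0 were called higher and 2 lower at P4 in untreated libraries, and their summed level was 3039 to 4444 at P1 and 1756 to 2284 at P4. Of 16 hair cell markers, 5 were called higher and 1 lower, and their sum was 38972 to 58834 at P1 and 64321 to 76555 at P4. Mesenchyme markers had 1 of 12 called higher and 3 lower, with a median log2 fold change of -1.02 and 8 of 12 below 0. Their mean log2 level was 12.2 to 12.5 at P1 and 11.3 to 11.8 at P4, whereas their sum was 160467 to 184061 at P1 and 189472 to 210387 at P4. None of these markers was at 0 in any library. The part of these lists in the differences of the regulators was not tested. Xist, which is expressed from the inactive X chromosome, had 3030 and 2794 normalized counts in P1 untreated replicates 2 and 3, 4180 and 3268 in the P4 treated libraries and 13 to 39 in the other 7 libraries. Sex as read from Xist therefore differs between the treated and untreated groups at P4, and between the treated groups of both ages, and cannot be told apart from these comparisons.

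Among histone methyltransferases, Kmt5c, which trimethylates lysine 20 of histone H4 in heterochromatin, had the smallest adjusted p. It lies at chr7:4740115-4747514 on the plus strand in the GENCODE M21 annotation of mm10, the source of all gene positions given here. Its normalized counts were 2904, 2858 and 2607 in P1 untreated and 4844, 4371 and 4313 in P4 untreated libraries. They were 2903, 2780 and 2877 in P1 treated and 3941 and 4096 in P4 treated libraries. Every P4 library was above every P1 library. The log2 fold change of P4 over P1 was 0.69 ± 0.07 (standard error; adjusted p = 0.000286) in untreated and 0.49 ± 0.08 (adjusted p = 0.00612) in treated libraries. The other Kmt5 enzymes stayed under the threshold, with log2 fold changes in untreated libraries of 0.12 ± 0.09 for Kmt5a, which places the monomethyl mark on the same lysine, and -0.15 ± 0.18 for Kmt5b, which dimethylates it.

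The 5 Kmt2 genes all had positive log2 fold changes in both comparisons of age, from 0.07 to 0.54 in untreated and from 0.13 to 0.37 in treated libraries. Only Kmt2c, which places the monomethyl mark on lysine 4 of H3 at enhancers, was called, and only in untreated libraries. Its normalized counts were 1934, 2090 and 1778 in P1 untreated, 2645, 2679 and 3138 in P4 untreated, 2045, 2492 and 1912 in P1 treated and 2644 and 2870 in P4 treated libraries. The P4 libraries again lay above the P1 libraries of the same treatment. The log2 fold change was 0.54 ± 0.12 (adjusted p = 0.00872) in untreated and 0.37 ± 0.13 (adjusted p = 0.0958) in treated libraries, and the difference between these was not called in the test of the interaction. Kmt2e had 0.24 ± 0.07 in untreated libraries (adjusted p = 0.0316), which is under the fold threshold. Kmt2a, a founding member of the family, had 1265, 1315 and 1290 normalized counts in P1 untreated and 1445, 1718 and 1520 in P4 untreated libraries, and 1264, 1702 and 1119 against 1513 and 1585 in treated libraries. Its log2 fold changes were 0.27 ± 0.14 (adjusted p = 0.192) and 0.21 ± 0.16 (adjusted p = 0.425).

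**Figure D2:**
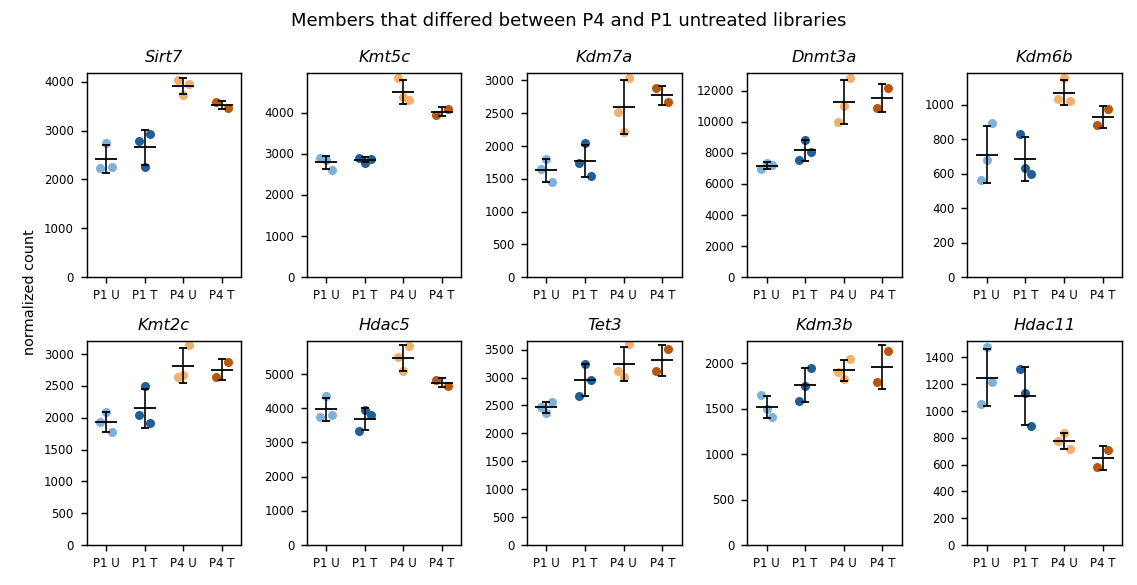
Normalized counts of the 10 regulators called between P4 and P1 untreated libraries, in each library (points), with the mean and SD of each group (bars), for untreated (U) and treated (T) libraries at P1 and P4. The 3 P4 untreated libraries lie above the 3 P1 untreated ones in all but Hdac11, where they lie below.

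Of the 3 DNA methyltransferases, Dnmt3a was the only one called with age. Dnmt3a, at chr12:3806007-3914443 on the plus strand, had 6935, 7374 and 7195 normalized counts in P1 untreated and 9972, 11002 and 12822 in P4 untreated libraries. In treated libraries it had 7543, 8844 and 8068 at P1 and 10913 and 12167 at P4. All 5 P4 libraries lay above all 6 P1 libraries. The log2 fold change was 0.64 ± 0.10 (adjusted p = 0.00171) in untreated and 0.50 ± 0.11 (adjusted p = 0.0183) in treated libraries. Dnmt1 had 2009, 2544 and 2166 in P1 untreated, 2459, 2133 and 2456 in P4 untreated, 2151, 2230 and 2331 in P1 treated and 2221 and 2332 in P4 treated libraries. Its groups overlapped, with log2 fold changes of 0.07 ± 0.10 and 0.03 ± 0.11.

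Dnmt3b was low, with 214, 248 and 167 normalized counts in P1 untreated, 154, 225 and 170 in P4 untreated, 227, 443 and 280 in P1 treated and 170 and 184 in P4 treated libraries. The highest value belonged to P1 treated replicate 2, in which the summed level of 9 markers of the stria vascularis and melanocytes was 5607, against 1397 to 4111 in the other libraries. Its part in the value was not tested. Dnmt3b was not called, at a log2 fold change with age of -0.20 ± 0.27 in untreated and -0.78 ± 0.30 (adjusted p = 0.119) in treated libraries.

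Tet3, which oxidises methylcytosine, had 2475, 2359 and 2561 normalized counts in P1 untreated and 3123, 3017 and 3592 in P4 untreated libraries, with a log2 fold change of 0.39 ± 0.10 (adjusted p = 0.0174). In treated libraries it had 2674, 3243 and 2953 at P1 and 3117 and 3508 at P4, which overlapped, with 0.17 ± 0.11 (adjusted p = 0.359). Tet1 had 1168, 1143 and 1139 in P1 untreated and 1522, 1432 and 1820 in P4 untreated libraries, and 1362, 1191 and 943 against 1937 and 1439 in treated ones. The ages did not overlap in either comparison, but Tet1 missed the threshold in both, at 0.46 ± 0.16 (adjusted p = 0.0589) and 0.53 ± 0.17 (adjusted p = 0.075). Tet2 stayed at log2 fold changes of -0.02 ± 0.16 and 0.17 ± 0.18.

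**Figure D3:**
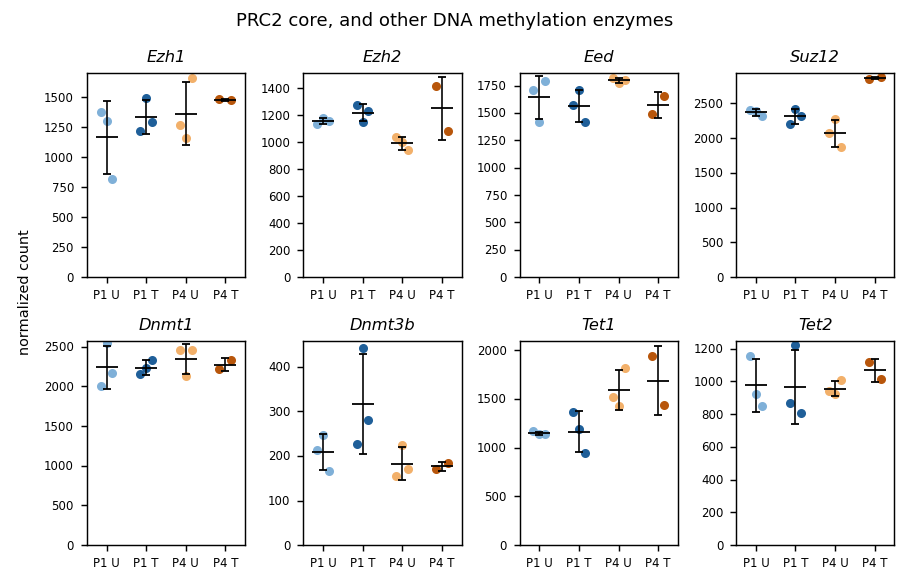
Normalized counts of the PRC2 core genes and of 4 DNA methylation and demethylation enzymes in each library (points), with the mean and SD of each group (bars), for untreated (U) and treated (T) libraries at P1 and P4. Suz12 is highest in the 2 P4 treated libraries, and Dnmt3b is highest in 1 P1 treated library.

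Among the deacetylases, the class IIa enzyme Hdac5, which shuttles between nucleus and cytoplasm, rose with age, and Hdac11, the only class IV enzyme, fell. Hdac5, at chr11:102194432-102230166 on the minus strand, had 3753, 4365 and 3792 normalized counts in P1 untreated, 5486, 5092 and 5833 in P4 untreated, 3338, 3953 and 3790 in P1 treated and 4837 and 4653 in P4 treated libraries. All P4 libraries exceeded all P1 libraries. Hdac5 differed by a log2 fold change of 0.46 ± 0.09 (adjusted p = 0.0059) in untreated and 0.36 ± 0.10 (adjusted p = 0.0443) in treated libraries. Hdac11, at chr6:91156665-91174692 on the plus strand, had 1054, 1476 and 1214 in P1 untreated, 777, 839 and 716 in P4 untreated, 1314, 1135 and 885 in P1 treated and 583 and 711 in P4 treated libraries. Here every P4 library was below every P1 library. The fitted log2 differences were -0.67 ± 0.17 (adjusted p = 0.0187) in untreated and -0.77 ± 0.19 (adjusted p = 0.0285) in treated libraries. Hdac11 was the only regulator called lower at P4 in either comparison.

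Neither the autosomal class I nor the other autosomal class II deacetylases were called. Hdac2, the partner of Hdac1 in corepressor complexes, had 7707, 7363 and 7733 normalized counts in P1 untreated, 7907, 7053 and 7219 in P4 untreated, 7133, 7338 and 8049 in P1 treated and 8416 and 7840 in P4 treated libraries. Its log2 fold changes with age were -0.04 ± 0.07 and 0.12 ± 0.08. Log2 fold changes of Hdac4, Hdac7, Hdac9 and Hdac10 lay between 0.03 and 0.23 in untreated libraries.

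Of the 7 sirtuins, only Sirt7, a nuclear deacetylase enriched in nucleoli, was called. It lies at chr11:120618372-120625240 on the minus strand. Its normalized counts were 2229, 2745 and 2262 in P1 untreated and 4040, 3718 and 3961 in P4 untreated libraries. The 2793, 2251 and 2926 of P1 treated libraries lay under the 3584 and 3462 of P4 treated libraries. The log2 fold change was 0.70 ± 0.11 (adjusted p = 0.0022) in untreated and 0.42 ± 0.13 (adjusted p = 0.0595) in treated libraries. Sirt1, which deacetylates histones and transcription factors, had 897, 1058 and 708 in P1 untreated, 887, 768 and 798 in P4 untreated, 800, 977 and 846 in P1 treated and 1024 and 814 in P4 treated libraries. Its groups overlapped throughout. The mitochondrial Sirt4 had 0.42 ± 0.14 (adjusted p = 0.061) and 0.36 ± 0.16 (adjusted p = 0.18).

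Of the 15 lysine demethylases, 3 were called in untreated libraries (20%, against 19.9% of all genes) and 1 in treated libraries (6.67%, against 11.1%), all higher at P4. Kdm7a, which acts on lysines 9 and 27 of H3 and lies at chr6:39136623-39206789 on the minus strand, had 1642, 1796 and 1453 normalized counts in P1 untreated, 2524, 2215 and 3030 in P4 untreated, 1738, 2039 and 1548 in P1 treated and 2879 and 2672 in P4 treated libraries. No P1 library reached a P4 library. On the log2 scale the change was 0.66 ± 0.14 (adjusted p = 0.00795) in untreated and 0.65 ± 0.15 (adjusted p = 0.0245) in treated libraries. Kdm6b, which removes the PRC2 mark, had 564, 677 and 893 in P1 untreated, 1032, 1152 and 1022 in P4 untreated, 830, 631 and 596 in P1 treated and 882 and 973 in P4 treated libraries. Its log2 fold change was 0.61 ± 0.18 in untreated libraries (adjusted p = 0.0332, or 0.0616 with the replicate block) and 0.45 ± 0.20 (adjusted p = 0.171) in treated libraries. The P4 libraries lay above the P1 libraries of the same treatment, with the nearest pair, P1 treated replicate 1 and P4 treated replicate 1, at 830 and 882.

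Kdm3b, a demethylase of lysine 9 of H3, was the third, at 0.34 ± 0.11 in untreated libraries (adjusted p = 0.0482, or 0.0696 with the replicate block) and 0.16 ± 0.12 (adjusted p = 0.446) in treated libraries. Kdm1a had 4998, 5896 and 5599 normalized counts in P1 untreated, 6936, 6107 and 6585 in P4 untreated, 5816, 5947 and 5479 in P1 treated and 6958 and 6551 in P4 treated libraries. It was higher in every P4 library, but by less than the fold threshold, with 0.25 ± 0.08 (adjusted p = 0.0481) in untreated libraries. The same held for Kdm5a, at 0.28 ± 0.07 (adjusted p = 0.0142). Kdm5b, which removes methyl groups from lysine 4 of H3, had 8275, 9018 and 7621 in P1 untreated, 10796, 7666 and 9869 in P4 untreated, 8203, 11063 and 9998 in P1 treated and 9998 and 10423 in P4 treated libraries, and its groups overlapped.

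Acetyltransferases and PRC2 core genes had none called with age. Crebbp, a coactivator, came nearest among the acetyltransferases in untreated libraries, with 1997, 1863 and 2058 normalized counts at P1 and 2409, 2433 and 2700 at P4 (log2 fold change 0.35 ± 0.13; adjusted p = 0.0733). In treated libraries it had 1893, 2654 and 1994 at P1 and 2205 and 2559 at P4. Its close relative Ep300 had 1753, 2018 and 1768 in P1 untreated, 2253, 1859 and 2586 in P4 untreated, 2155, 2621 and 1695 in P1 treated and 2316 and 2756 in P4 treated libraries. Kat2b had 581, 618 and 689 in P1 untreated, 935, 682 and 959 in P4 untreated, 648, 501 and 389 in P1 treated and 765 and 655 in P4 treated libraries. The log2 fold changes of Kat2b were 0.43 ± 0.20 (adjusted p = 0.14) and 0.50 ± 0.22 (adjusted p = 0.173), and those of Ep300 0.26 ± 0.17 and 0.25 ± 0.19.

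In the PRC2 core, the catalytic subunit Ezh2 had 1136, 1182 and 1158 normalized counts in P1 untreated, 1037, 1002 and 943 in P4 untreated, 1277, 1151 and 1231 in P1 treated and 1417 and 1087 in P4 treated libraries. The alternative subunit Ezh1 had 1379, 1305 and 815 in P1 untreated, 1270, 1157 and 1658 in P4 untreated, 1217, 1497 and 1293 in P1 treated and 1485 and 1475 in P4 treated libraries. With age in untreated libraries Ezh2 was at -0.22 ± 0.11 (adjusted p = 0.166) and Ezh1 at 0.24 ± 0.20 (adjusted p = 0.415). The adaptor Eed was at 0.14 ± 0.11.

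In treated libraries 5 of 58 regulators (8.62%) were called with age, 4 higher and 1 lower at P4, where 11.1% of all genes tested were called, 5.42% higher and 5.63% lower. The 5 made up 50% of the 10 regulators called in untreated libraries and 100% of those called in treated libraries. Among all genes tested, 1509 were called in the same direction in both, which is 41.2% and 74.2% of the calls. These comparisons share no library, but both draw on the spread of each gene pooled over all libraries, so they are not independent. Of the 58 regulators, 47 (81.0%) had the same direction of difference with age in treated and untreated libraries, against 75.5% of all genes tested. The P4 and P1 libraries did not overlap for 25 regulators in untreated (43.1%) and 25 in treated libraries (43.1%), where the shares for all genes were 41.3% and 43.1%. In each case 18 were higher and 7 lower at P4.

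**Figure D4:**
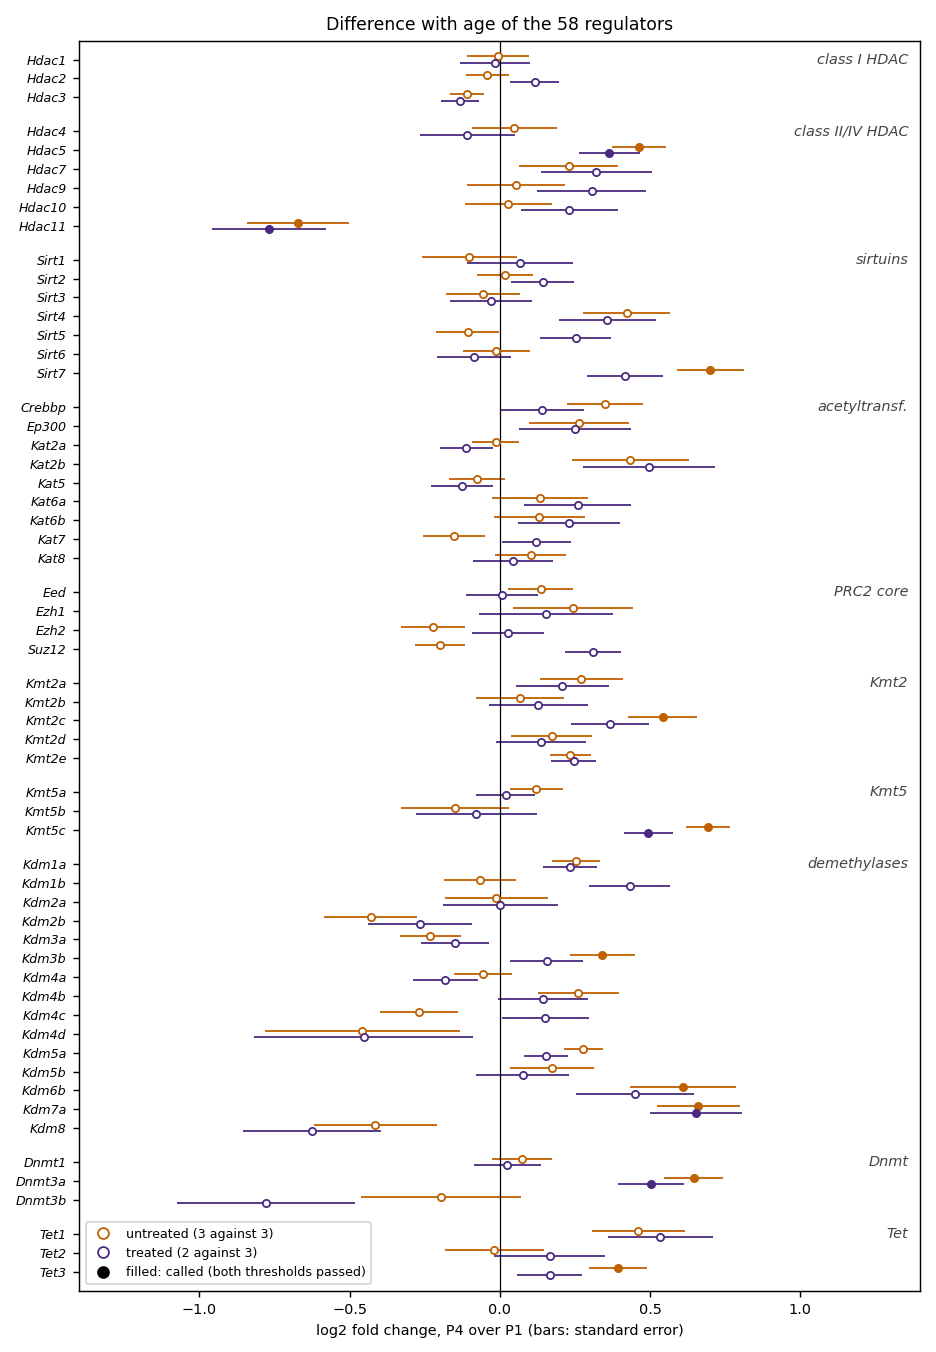
Log2 fold change of P4 over P1 for each of the 58 regulators by class, in untreated and treated libraries, with the standard error as bars and filled points for called genes. All points of the Kmt2 class lie to the right of 0 in both, and Hdac11 is the only filled point to the left of 0.

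The strength of these calls differed between genes. Kmt5c, Dnmt3a, Sirt7 and Hdac5 were called in untreated libraries under all 18 alternatives tried. Among these, the looser adjusted p and the absence of a fold threshold reuse the main fit and could not remove a call. Kdm7a and Kmt2c lost the call in both fits that take Xist into account. With log2 Xist as a covariate their adjusted p was 0.0586 and 0.0638, and with P1 untreated replicates 2 and 3 left out 0.104 and 0.111. Their log2 fold changes stayed close to those without Xist, at 0.64 and 0.65 for Kdm7a and 0.53 and 0.54 for Kmt2c. Tet3 lost the call as well (adjusted p = 0.105 and 0.184) with folds of 0.37 and 0.39. Hdac11 had smaller differences of -0.50 (adjusted p = 0.165) and -0.44 (adjusted p = 0.31), as had Kdm3b, at 0.24 (adjusted p = 0.304) and 0.22 (adjusted p = 0.485). Leaving out single libraries gave adjusted p of 0.0211 to 0.0677 for Hdac11, which lost the call without P1 untreated replicate 2 or 3 or P4 untreated replicate 3. For Tet3 the range was 0.0214 to 0.0686, and the call was lost without P1 untreated replicate 2 or P4 untreated replicate 3. For Kdm6b it was 0.014 to 0.112, and the call held only without P1 untreated replicate 3, the library with its highest P1 untreated value. For Kdm3b it was 0.0535 to 0.149, so that every omission removed the call. With the replicate number as a block, Kdm6b (0.61; adjusted p = 0.0616) and Kdm3b (0.34; adjusted p = 0.0696) kept their log2 fold changes but not the call, and 8 of the 10 regulators remained.

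The calls in treated libraries were weaker. Only Kmt5c was called without P1 treated replicate 1 or without P4 treated replicate 1, and it lost the call, as did all others, without P4 treated replicate 3 (adjusted p = 0.067). Over these omissions the highest adjusted p was 0.214 for Hdac5, 0.157 for Dnmt3a, 0.193 for Hdac11 and 0.147 for Kdm7a. With log2 Xist as a covariate, which in treated libraries differs wholly between the ages, 0 of the 5 were called, at log2 fold changes of 0.58 for Kmt5c, 0.69 for Kdm7a, -1.10 for Hdac11, 0.45 for Dnmt3a and 0.26 for Hdac5. With the replicate block 2 were called, Kmt5c and Dnmt3a.

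The comparison of treated with untreated libraries asks what differed 72 h after tamoxifen between pups with and without Cre, and so with and without stabilized β-catenin. The Cre allele, with the lower Sox2 of P1 treated libraries, cannot be told apart from stabilization of β-catenin. At P1, 0 of 58 regulators were called, where 0.353% of all genes tested were, and at P4 0, where the share was 0.0543%. At an unadjusted p under 0.05, 1 regulator was higher and 3 were lower in P1 treated libraries, and 3 were higher and 0 lower in P4 treated libraries. These make up 6.9% and 5.17% of the regulators, against 12.2% and 11.6% of all genes tested. The median log2 fold change was 0.00 at both ages. Groups did not overlap for 8 regulators at P1 (13.8%, against 15.3% of all genes) and 15 at P4 (25.9%, against 33.5%). At P1 the range over the regulators was from -0.46 for Kdm4d, whose counts were 28 to 69, to 0.55 for Dnmt3b.

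At P1 the 4 regulators with an unadjusted p under 0.05 were Tet3 at 0.26 ± 0.10 (adjusted p = 0.317), Sirt5 at -0.31 ± 0.11 (adjusted p = 0.268), Hdac10 at -0.35 ± 0.15 (adjusted p = 0.361) and Kmt2e at -0.16 ± 0.07 (adjusted p = 0.372). All 6 autosomal class II and IV deacetylases had negative log2 fold changes at P1, with a median of -0.17. So had 5 of 6 at P4, with a median of -0.19, but none was called. At P4 the 3 were all higher in treated libraries, namely Suz12 at 0.47 ± 0.09 (adjusted p = 0.175), Ezh2 at 0.32 ± 0.12 (adjusted p = 0.349) and the acetyltransferase Kat7 at 0.27 ± 0.12 (adjusted p = 0.416). Suz12, the PRC2 subunit that binds the catalytic enzyme, had 2851 and 2876 normalized counts in P4 treated and 2066, 2268 and 1874 in P4 untreated libraries. At P1 it had 2198, 2418 and 2318 in treated and 2405, 2382 and 2319 in untreated libraries, which overlapped. Suz12 was singled out after its values were seen. Its P4 treated libraries were the only P4 libraries with Xist above 39 normalized counts.

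**Figure D5:**
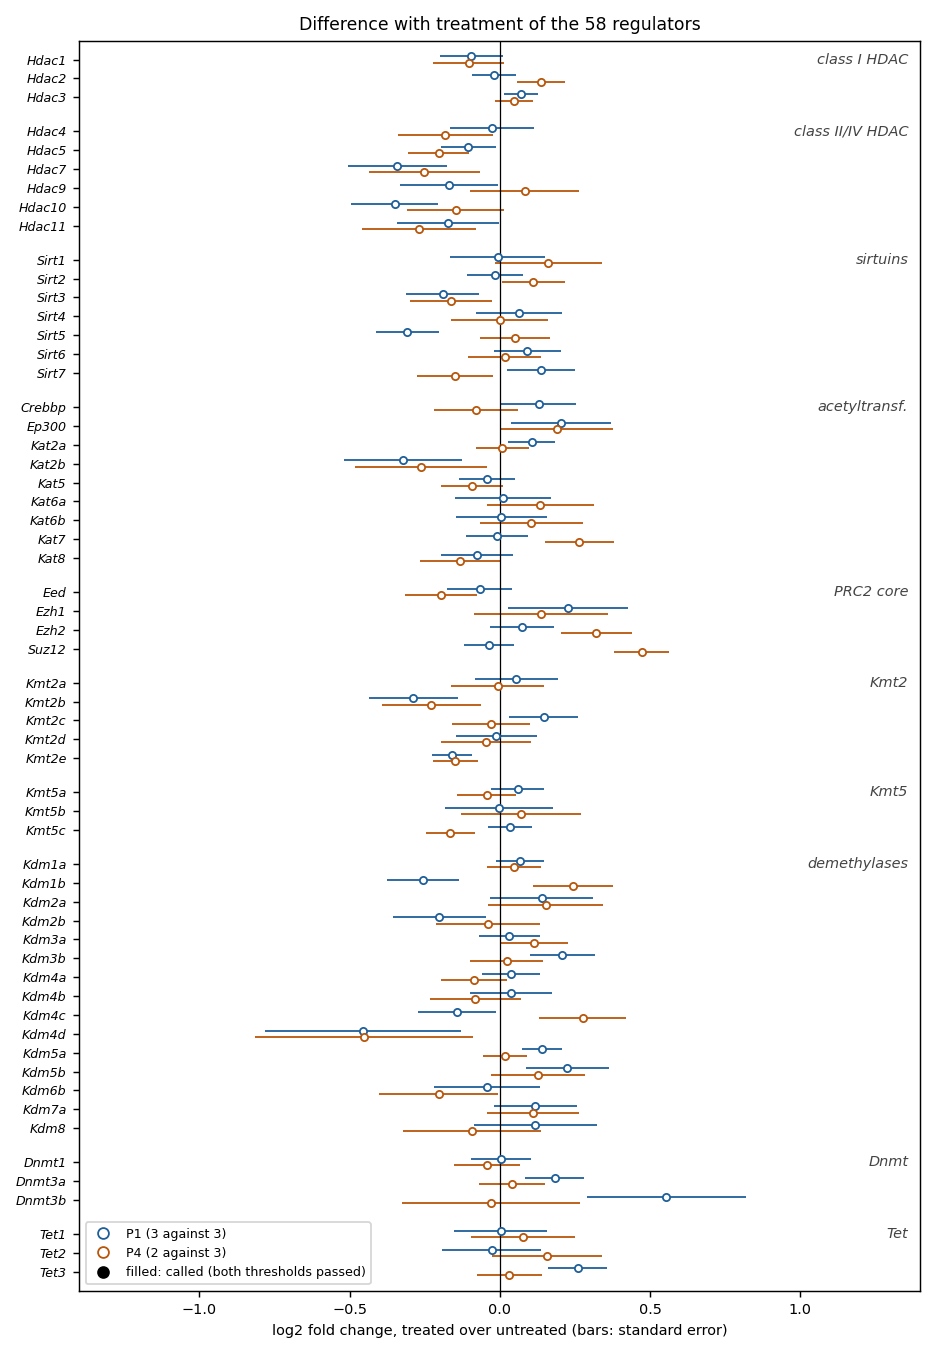
Log2 fold change of treated over untreated libraries for each of the 58 regulators by class, at P1 and at P4, with the standard error as bars. All points are open, since no regulator was called at either age, and the P4 point of Suz12 lies farthest to the right among the P4 points.

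The test of the interaction, which compares the effect of treatment at P1 with that at P4, called 0 of 58 regulators, and 0% of the 18400 genes tested. At an unadjusted p under 0.05 there were 3 regulators with a lower effect at P1, Suz12 (adjusted p = 0.768), Kdm1b (adjusted p = 0.82) and Sirt5 (adjusted p = 0.844). They make up 5.17% of the regulators, against 5.8% of all genes tested.

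Partners of these enzymes were counted from lists of the complexes in which they work. Of all genes tested, 9.38% were called higher and 10.5% lower at P4 in untreated libraries, and 5.42% and 5.63% in treated libraries. The counts in every list below stand against these shares. No list was tested as a set, so the counts are description only. Unlike the regulators, the listed genes were not limited to autosomes. For any on chromosome X or Y, sex as read from Xist also differs between the groups compared. With age in untreated libraries, 6 of 26 partners in HDAC corepressor complexes were higher and 3 lower at P4. Chd3, a chromatin remodeller of the NuRD complex, had 1787, 1640 and 1894 normalized counts in P1 untreated and 3075, 3240 and 3601 in P4 untreated libraries (log2 fold change 0.90 ± 0.12; adjusted p = 0.00075). Suds3 of the Sin3 complex, at 0.67 ± 0.09 (adjusted p = 0.000868), and Mta3 of NuRD, at 0.52 ± 0.07 (adjusted p = 0.00114), rose as well. In treated libraries 3 were higher and 3 lower, and Suds3 was again higher, at 0.59 ± 0.10 (adjusted p = 0.00658). Sin3b fell by 0.55 on the log2 scale (adjusted p = 0.00464) and Sap30 by 0.85 (adjusted p = 0.00291) there.

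Sap30, a subunit of the Sin3 corepressor that carries Hdac1 and Hdac2, was the only gene of all 8 partner lists called with treatment at P1. Of all genes tested, 0.353% were called there. It had 1942, 2047 and 1988 normalized counts in P1 treated and 1374, 1174 and 1402 in P1 untreated libraries, which did not overlap (log2 fold change 0.60 ± 0.10; adjusted p = 0.0485). At P4 it had 1181 and 1027 in treated and 940, 820 and 939 in untreated libraries. No gene of the 8 lists was called with treatment at P4, where 0.0543% of all genes tested were.

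Of 28 partners in Polycomb complexes, 1 was higher and 2 were lower at P4 in untreated libraries. Jarid2, which guides PRC2 to chromatin, had 1895, 1828 and 1560 normalized counts in P1 untreated, 3432, 2431 and 3284 in P4 untreated, 1543, 2338 and 2343 in P1 treated and 3631 and 4029 in P4 treated libraries. Its log2 fold change was 0.78 ± 0.18 (adjusted p = 0.0123) in untreated and 0.91 ± 0.20 (adjusted p = 0.0189) in treated libraries, where it was the 1 partner called. Rbbp7, a histone-binding subunit shared with HDAC complexes, fell by 0.58 (adjusted p = 0.000752) and Bmi1 of PRC1 by 0.45 (adjusted p = 0.0302). Of 13 genes listed with the Kmt2 enzymes, not all of them partners, 2 were higher and 0 lower in untreated libraries. These were Ash2l at 0.40 ± 0.09 (adjusted p = 0.0126) and Setd1b at 0.84 ± 0.22 (adjusted p = 0.0213). None of the 13 was called in treated libraries.

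Of the called genes in the 8 partner lists, Hr had the largest difference with age in untreated and in treated libraries. Hr (hairless), a demethylase of lysine 9 of H3 and corepressor of nuclear receptors, had 574, 823 and 555 normalized counts in P1 untreated and 4605, 3952 and 5535 in P4 untreated libraries. In treated libraries it had 1114, 1123 and 1128 at P1 and 3936 and 4818 at P4. All P4 libraries exceeded all P1 libraries several times over, with log2 fold changes of 2.86 ± 0.17 (adjusted p = 2e-05) and 1.96 ± 0.18 (adjusted p = 0.000523). Of the 9 other demethylases in the list, 2 were higher and 0 lower in each comparison of age, and the second was Jmjd1c, at 0.65 ± 0.10 (adjusted p = 0.00178) and 0.40 ± 0.11 (adjusted p = 0.045).

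Among 16 genes of methyl-DNA binding and DNA demethylation, 1 was higher and 2 were lower at P4 in untreated libraries, and the same counts held in treated libraries. Uhrf1, which brings Dnmt1 to replicating DNA, had 617, 298 and 512 normalized counts in P1 untreated, 173, 166 and 219 in P4 untreated, 773, 665 and 1347 in P1 treated and 285 and 218 in P4 treated libraries. It fell by 1.30 (adjusted p = 0.0153) in untreated and by 1.82 (adjusted p = 0.0106) in treated libraries on the log2 scale. The highest value was in P1 treated replicate 3, which also had the highest sum of the 25 G2 and M phase genes, 12797 against 1756 to 6579 elsewhere. Gadd45a rose by 0.99 (adjusted p = 0.00158) and 0.60 (adjusted p = 0.0424), whereas its relative Gadd45b fell by 1.25 (adjusted p = 0.00175) and by 1.06 (adjusted p = 0.0132).

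Of 30 other histone methyltransferases, 2 were higher and 4 lower at P4 in untreated libraries, and 1 was higher and 2 lower in treated libraries. Smyd5 fell by 0.67 (adjusted p = 0.0023), the arginine methyltransferase Prmt5 by 0.54 (adjusted p = 0.00339) and Suv39h2, which methylates lysine 9 of H3, by 0.80 (adjusted p = 0.00813) in untreated libraries. In treated libraries Setd7 was higher, at 0.92 ± 0.24 (adjusted p = 0.0337), and Smyd2 fell by 0.46 (adjusted p = 0.0262). Of 29 other acetyltransferases and their partners, 4 were higher and 3 lower in untreated libraries, with Trrap, a scaffold of acetyltransferase complexes, at 0.77 ± 0.14 (adjusted p = 0.00422), Ncoa2 at 0.63 ± 0.12 (adjusted p = 0.00642) and Cited2, which competes for Ep300 and Crebbp, at -0.51 ± 0.10 (adjusted p = 0.00482). In treated libraries 1 was higher and 2 lower. Of 16 bromodomain proteins, only some of which read acetylated histones, 3 were higher and 1 was lower in untreated libraries. Trim28 stood at 0.51 ± 0.08 (adjusted p = 0.00183) and Brd2 at -0.33 ± 0.09 (adjusted p = 0.0252). None was called in treated libraries.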

How the data were processed

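RNA from both cochleae of single newborn mouse pups was measured by RNA-seq in 4 groups. Of 12 described samples, 11 have a column in the deposited table. The remaining sample, P4 treated replicate 2, was not analysed here. Values are a score that the authors deposited, namely normalized counts per gene rounded to whole numbers. Per the labels and the paper, alignment to mm10 was done by the authors in STAR 2.5.2b, with featureCounts for quality control, Sailfish for quantification and DESeq2 for normalization. The sources used here do not say which counts the table holds. Library sums were 41.2 to 44.2 M. As the values are no longer counts, count models were not used.

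A linear model of log2(normalized count + 1) with 4 group means was fitted in limma 3.58.1 (R 4.3.3), pooling the spread over the libraries and letting its prior follow the level. The 18400 genes with a mean of at least 10 were tested, and p-values were adjusted over them by the method of Benjamini and Hochberg. Fold changes understate the change of low genes on this scale. Called genes changed more than 1.25-fold with an adjusted p below 0.05. Replicates are separate pups. The script was checked on simulated data.

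The members and gene lists were chosen with earlier results of these data known. Library values were given for up to 6 called members per direction and comparison with the smallest adjusted p, and for a set of core enzymes, and of each list up to 3 called genes per comparison with the smallest adjusted p were eligible to be named. Suz12, Kdm1b and Sirt5 library values fall outside this rule. Same-numbered untreated libraries of P1 and P4 deviated together from their group means, with correlations across genes of 0.135, 0.136 and 0.115. The main fit does not pair them, and only the fit with the replicate block takes them as pairs. That block spans all libraries, treated ones included. In the other comparisons these correlations were -0.061 to 0.026. No source used here says what a shared number stands for. Gene positions and exon lengths came from GENCODE M21, which matched 97.4% of the IDs, and promoter windows from RefSeq. The alternatives were another pseudocount, filters, 2 other scalings, no trend, only the groups compared, a replicate block, log2 Xist as a covariate, other thresholds and the omission of each library. An omission of Xist-high untreated libraries was added after seeing the data.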

Additional observations from a re-analysis of the deposited data

Results flagged for a closer look

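In 3 regulators every library of one comparison moved one way and every library of the matching comparison moved the other way, while the interaction of treatment and age called none of them. How many of all genes tested had this pattern was not counted. In either direction, groups did not overlap for 15.3% of all genes with treatment at P1 and 33.5% at P4. With age the shares were 41.3% in untreated and 43.1% in treated libraries. The interaction is the log2 effect of treatment at P1 minus that at P4. Kdm1b, a demethylase of lysine 4 of H3, had 866, 952 and 816 normalized counts in P1 treated and 972, 1036 and 1137 in P1 untreated libraries (log2 fold change -0.26). At P4 it had 1135 and 1232 in treated and 1077, 854 and 1084 in untreated libraries (log2 fold change 0.24). Its interaction was -0.50 (adjusted p = 0.82).

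Suz12 was lower at P4 than at P1 in untreated libraries, by a log2 fold change of -0.20, and higher in treated libraries, by 0.31. Its interaction was -0.51 (adjusted p = 0.768). Sirt5, a mitochondrial sirtuin, had 814, 780 and 761 normalized counts in P1 untreated and 714, 744 and 728 in P4 untreated libraries, and 641, 564 and 704 in P1 treated and 769 and 741 in P4 treated libraries. Its log2 fold changes with age were -0.11 in untreated and 0.25 in treated libraries, and its interaction was -0.36 (adjusted p = 0.844). The P4 treated libraries, on which each of these values rests, are 2 in number and both high in Xist. Samples far from the rest of a group were not sought, since no group had more than 3 libraries.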

How the results depend on the processing

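Under each alternative tried, 0 regulators were called with treatment at P1, with treatment at P4 and in the interaction. In the simulated data, 67 of 100 genes changed 2-fold were called with treatment at P1, and 57 of 100 at P4. Changes of this size or smaller can therefore be missed. With age in untreated libraries the number was 10, and 8 to 14 under the alternatives other than those on Xist and omissions. It was 6 with log2 Xist as a covariate and 5 with only the untreated libraries low in Xist, where the lone P1 untreated library was assumed to vary like the other groups. Omitting single libraries gave 6 to 8, with 6 without P1 untreated replicate 2 or P4 untreated replicate 3. With age in treated libraries the number was 5. It was 3 without the trend, 1 with only the groups compared, 2 with the replicate block, 0 with log2 Xist as a covariate, and 9 at an adjusted p under 0.1. Omitting single libraries gave 0 to 6, with 0 without P4 treated replicate 3 and 1 without replicate 1 of either treated group. The cause of these changes was not tested. No called regulator changed direction under any alternative. The block changed no other call than those given for age, and left 8 in untreated libraries. In treated libraries, and between treatments, same-numbered libraries showed little shared deviation, and what a shared number stands for is not known. The 2 other scalings moved the median of all genes by less than 0.1. The depth of each library before normalization is not used here.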
